A study of Mus musculus with 9 samples.

Results

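Astrocyte genes of the hippocampus were followed in mice on a standard diet, on a high-methionine diet, and on a high-methionine diet followed by betaine. The members were 10 genes, Gfap, Aqp4, S100b, Aldh1l1, Gja1, Gjb6, Vim, Aldoc, Sox9 and Serpina3n, of the 54532 genes in the deposited tables. They were taken from the tables by gene symbol. Gene expression was measured by RNA sequencing of total RNA from whole hippocampus in 9 samples. The mice were wild type, labelled male C57BL/6 and 6 to 8 weeks old at the start, whereas the study's methods name female mice. The strain field of the 3 betaine samples reads C57BL/6, C57BL/7 and C57BL/8. The 3 control samples (Con) came from mice on a standard diet, and the 3 HMD samples from mice on a diet enriched in methionine, the precursor of homocysteine, for 8 weeks. The 3 Bet+HMD samples came from mice that ate the high-methionine diet for 8 weeks and then were given betaine, a source of methyl groups, at 2.5% (w/v) in the water bottle for 2 weeks. Whether the diet went on during the betaine weeks, and whether the groups were of equal age when sampled, is not stated. The labels do not say whether a sample was 1 mouse or a pool, so p-values measure the spread between these samples.

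Astrocytes are the star-shaped glia that clear glutamate and potassium from synapses, supply neurons with metabolites, and wrap blood vessels with end-feet. They are coupled into networks by gap junctions of the connexins encoded by Gja1 and Gjb6. After injury or in inflammation astrocytes become reactive, and the intermediate filament genes Gfap and Vim and the protease inhibitor gene Serpina3n are commonly used as markers of that state. The study used GFAP protein as its astrocyte marker in high-methionine mice. By western blot and immunofluorescence it reported more GFAP in hippocampus under the diet and no difference in cortex. The question here is what the RNA of Gfap and its companion genes did under the diet and after betaine.

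Expression values are FPKM, that is, fragments corrected for gene length and for a library size. The authors deposited an earlier table with Con and HMD and a later table with all 3 groups. Reads on genes ranged from 16449388 to 18566712 (earlier) and from 16031464 to 18291952 (later) per library. Each member had between 479 (Serpina3n) and 13542 (Aldoc) reads in every library. The Bet+HMD libraries stood apart. Long intergenic noncoding RNA genes took 1.40% to 1.45% of their reads, against 0.476% to 0.560% in HMD and 0.499% to 0.534% in Con. Ribosomal protein genes took 0.470% to 0.544% of their reads, against 0.881% to 1.07% in HMD and 0.920% to 1.40% in Con. Only Bet+HMD was added with the later table, so betaine and a difference between library sets cannot be told apart in any comparison with Bet+HMD. All 10 members were above 5 FPKM in every library, which does not show the cell type that made the RNA. In bulk tissue, fewer astrocytes and less RNA per astrocyte cannot be told apart.

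Promoter windows of 8 of the 10 members were found in RefSeq (GRCm38.p6), each reaching from 250 bases before an annotated start to 50 bases after it. Those of Gfap, Gja1 and Vim are shown because these 3 genes were lower after betaine against both other groups and their windows hold a searched motif. Capitals mark the matches. The window of Gfap, the gene of the main astrocyte filament, lies at chr11:102897151-102897450 on the minus strand, inside the span of the gene in the deposited tables. The window of Gja1, which encodes connexin 43, lies at chr10:56377050-56377349 on the plus strand and crosses the annotated start of the gene. The window of Vim, which encodes vimentin, lies at chr2:13574061-13574360 on the plus strand, inside the gene's span.
Gfap: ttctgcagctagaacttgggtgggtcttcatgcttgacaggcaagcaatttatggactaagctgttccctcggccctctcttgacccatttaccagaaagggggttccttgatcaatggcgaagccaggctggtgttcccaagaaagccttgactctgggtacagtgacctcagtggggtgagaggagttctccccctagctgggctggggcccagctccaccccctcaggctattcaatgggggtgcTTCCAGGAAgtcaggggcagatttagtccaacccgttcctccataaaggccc
Gja1: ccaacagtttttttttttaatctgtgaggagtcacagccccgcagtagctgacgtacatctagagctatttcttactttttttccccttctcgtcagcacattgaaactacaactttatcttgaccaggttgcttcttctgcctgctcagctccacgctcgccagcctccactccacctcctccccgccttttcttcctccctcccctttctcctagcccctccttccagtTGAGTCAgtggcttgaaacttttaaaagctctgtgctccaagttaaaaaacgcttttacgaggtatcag
Vim: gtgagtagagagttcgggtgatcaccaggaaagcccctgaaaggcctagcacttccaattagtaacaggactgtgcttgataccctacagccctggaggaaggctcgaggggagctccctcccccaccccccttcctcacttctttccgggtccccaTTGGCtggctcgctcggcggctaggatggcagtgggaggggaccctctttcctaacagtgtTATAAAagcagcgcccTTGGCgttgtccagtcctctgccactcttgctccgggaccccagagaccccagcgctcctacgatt

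Motifs were searched on both strands. The Gfap window holds 1 match to TTCNNNGAA, the word bound by STAT factors, with its first base at position -2 from the start, and 8.30% of 32851 windows of the same length hold this word. The Gja1 window holds 1 match to the AP-1 word TGANTCA at position -19, a word found in 7.81% of windows. In the Vim window, TATAAA stands at position -32 (13.6% of windows) and the NFI word TTGGC at positions -93 and -16 (46.7% of windows). The printed matches do not overlap each other. Of the 8 members with a window, the STAT word was in Gfap and Aldoc, the NFI word in S100b, Vim and Aldoc, and the GC box GGGCGG (35.7% of windows) in Aldh1l1 and Aldoc. Aldoc had 2 windows, 1 with the NFI word and the GC box and the other with the STAT word, whereas the percentages are per window. The windows of Gjb6 and Serpina3n held none of the 5 words. A match is a description of letters and not a measured binding site.

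In Con samples of the later table, Aldoc, which encodes the brain aldolase of glycolysis, had the highest level of the 10 members, at 198 ± 44.3 FPKM (SD, n = 3). Gfap followed at 75.3 ± 9.21 FPKM and S100b, a calcium-binding protein gene of astrocytes, at 59.7 ± 7.43 FPKM, with overlapping samples. Aqp4, Gjb6, Gja1 and Serpina3n formed a middle range from 24.3 to 32.8 FPKM, and each overlapped the next. Vim, Sox9 and Aldh1l1 were lowest, at 11.7, 9.70 and 8.95 FPKM, and were not separated by their samples. In HMD the order differed in that Gjb6 stood above Aqp4 with no overlap, at 41.8 to 48.8 against 28.6 to 37.8 FPKM. In Bet+HMD, Vim was the lowest of the members at 7.07 FPKM, below Aldh1l1 in every sample.

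**Figure D1:**
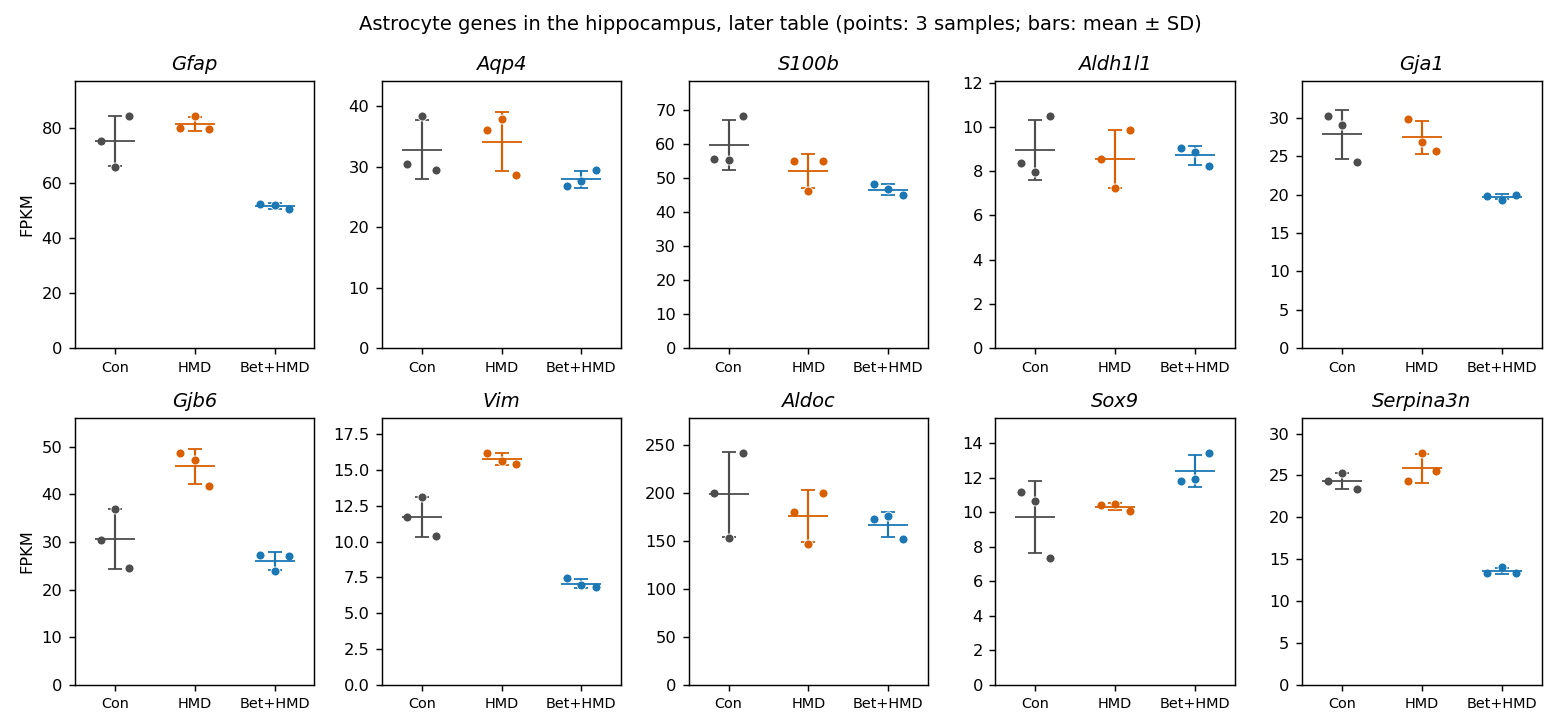
FPKM of the 10 members in the later table, one panel a gene, with the 3 samples of each group as points and the mean ± SD as bars on axes that start at 0. The Bet+HMD points of Gfap, Gja1, Vim and Serpina3n lie below all Con and HMD points, those of Gjb6 lie below all HMD points (23.9 to 27.2 against 41.8 to 48.8 FPKM), and those of Aldh1l1 and Aldoc lie within the range of HMD.

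The Con samples varied among themselves in opposite directions for different members. Con replicate 3 had the highest Con levels of Aldoc (242 FPKM), Gfap (84.4), S100b (68.3) and Aldh1l1 (10.5). The same library had the lowest Con levels of Gjb6 (24.6 FPKM), Aqp4 (29.4), Gja1 (24.3), Vim (10.4) and Sox9 (7.32). The 10 genes did not vary as 1 block even between samples of the same group.

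Con and HMD of the earlier table were compared to ask whether the diet shifted astrocyte RNA. Of the 10 members 0 passed an adjusted p under 0.05 in limma, and 0% of the 12989 genes tested did so. limma voom on the recovered reads also called 0 members. At an unadjusted p under 0.05 there were 2 members, Gjb6 and Vim, against 4.56% of all genes. These 2 were also the members whose HMD samples all lay above the Con samples (4.71% of all genes), and for 0 members did they all lie below (4.66% of all genes). The median log2 fold change of the members was 0.077, beside -0.0038 over all genes, with 6 positive and 4 negative estimates (7 positive after rescaling to TPM, where Gja1 changed sign).

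Gjb6 (ENSMUSG00000040055, GRCm38 chromosome 14, 57123303 to 57133611, minus strand) encodes connexin 30, a gap junction protein of gray matter astrocytes. Its Con samples had 29.9, 36.6 and 23.9 FPKM, and its HMD samples 47.9, 46.1 and 41.0 FPKM. All HMD values were above all Con values. The log2 fold change was 0.58 (SE 0.164, 95% interval 0.20 to 0.96), with a limma p of 0.00819 and an adjusted p of 0.906.

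Vim (ENSMUSG00000026728, chromosome 2, 13573927 to 13582826, plus strand) encodes a filament protein of immature and reactive astrocytes that endothelial and ependymal cells also make. It stood at 11.5, 12.9 and 10.1 FPKM in Con and at 15.9, 15.2 and 15.3 FPKM in HMD, without overlap. The log2 fold change was 0.40 (SE 0.115, 95% interval 0.13 to 0.67), with a limma p of 0.00882 and an adjusted p of 0.906. Endothelial and mural markers summed to 109.8 to 121 FPKM in Con and 104 to 109.8 FPKM in HMD, and ependymal markers to 13.3 to 32.8 FPKM in Con and 13.1 to 22.2 FPKM in HMD. The part of these cells in the Vim values was not tested.

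Gfap (ENSMUSG00000020932, chromosome 11, 102887336 to 102900912, minus strand) had 74.2, 65.5 and 82.2 FPKM in Con and 80.0, 82.7 and 78.7 FPKM in HMD. All HMD samples lay above 2 of the Con samples, and HMD replicate 2 lay above all of them. Its estimated log2 fold change of 0.12 (95% interval -0.15 to 0.40) had a limma adjusted p of 0.980. Serpina3n gave 0.089 (95% interval -0.15 to 0.33), and Sox9, the transcription factor of glial fate, gave 0.11 (-0.26 to 0.48). S100b had the most negative estimate, -0.17 (-0.47 to 0.14). The other 4 members lay between -0.15 (Aldoc) and 0.065 (Aqp4), and all of these intervals include 0.

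Markers of the neighboring thalamus had a higher summed level in HMD than in Con. Their summed level was 48.3 to 53.2 FPKM in Con and 166, 72.0 and 91.2 FPKM in HMD replicates 1, 2 and 3. Of the 12 markers 10 were tested, 10 had a positive estimate, and 0 passed an adjusted p under 0.05 in limma (0% of all genes). At an unadjusted p under 0.05 there were 7 (4.56% of all genes). For 8 the HMD samples all lay above Con (4.71% of all genes). In Bet+HMD the sum was 49.9 to 51.0 FPKM. Without HMD replicate 1, the library with the highest thalamus level, the log2 fold change was 0.54 for Gjb6 and 0.38 for Vim. HMD replicates 2 and 3 also had thalamus sums above every Con sample, so that fit does not remove the difference. The part of thalamus tissue in the Gjb6 and Vim values was not tested further.

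**Figure D2:**
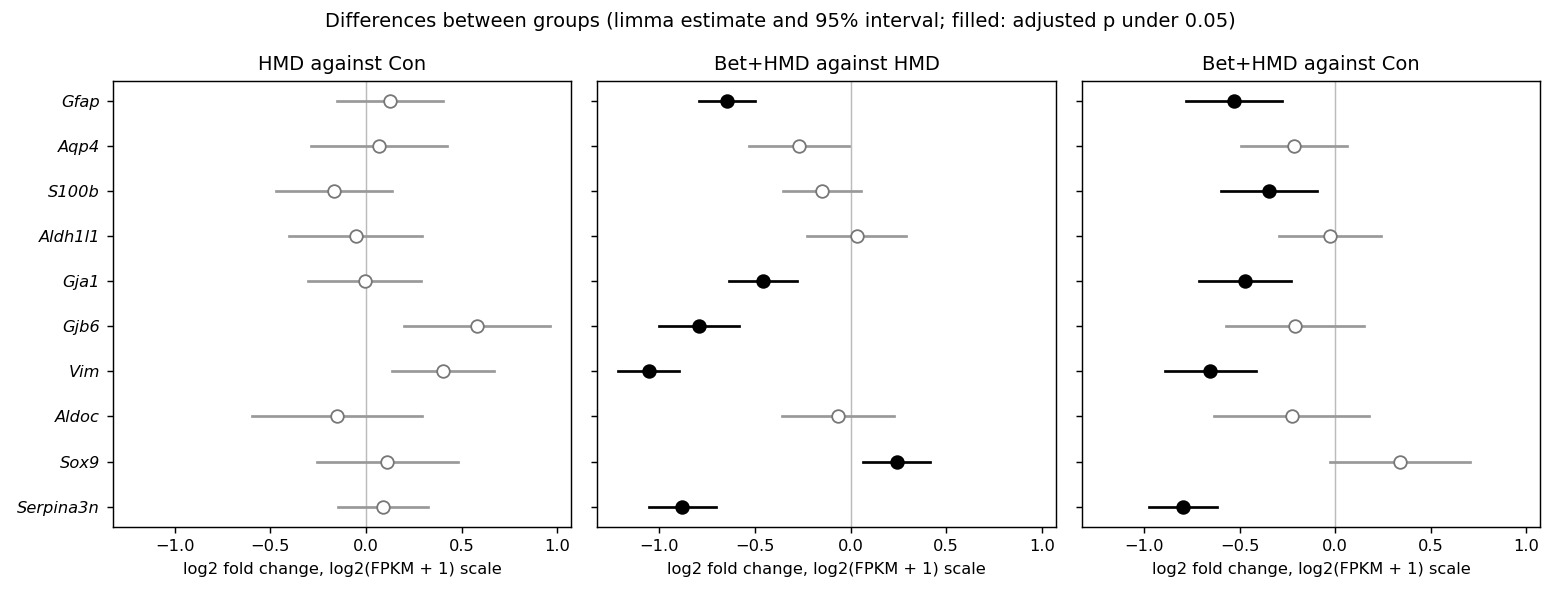
Log2 fold change of each member on the log2(FPKM + 1) scale in the 3 comparisons, with the 95% limma interval as a line and a filled point where the adjusted p was under 0.05. In HMD against Con no point is filled, and in both comparisons with Bet+HMD the filled points are negative except that of Sox9 (0.24) against HMD.

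Bet+HMD was then compared with HMD, in the later table, to ask how the same genes stood after betaine. Of the 10 members 5 fell, where 25.5% of the 13672 genes tested fell, and 1 rose, where 22.8% of all genes rose. Vim, Serpina3n, Gjb6, Gfap and Gja1 fell and Sox9 rose, and Aqp4, S100b, Aldoc and Aldh1l1 did not pass. The samples did not overlap for the same 5 lower members (31.8% of all genes) and for Sox9 (28.3% of all genes). Vim was the 1 member lower by at least 1 on the log2 scale, a class that held 2.79% of all genes. The median log2 fold change was -0.36 over the members and -0.025 over all genes.

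Among the filament genes, Gfap had 80.1, 84.3 and 79.7 FPKM in HMD and 52.5, 51.9 and 50.5 FPKM in Bet+HMD. Every Bet+HMD sample was below every HMD sample. Gfap was 36.6% lower, a log2 fold change of -0.65 (SE 0.0625, limma adjusted p 0.000297). A long intergenic noncoding RNA gene on the opposite strand overlaps Gfap but had at most 23 reads in a library.

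Vim had 16.2, 15.7 and 15.4 FPKM in HMD and 7.43, 6.95 and 6.83 FPKM in Bet+HMD, and the groups were far from overlapping. It was 55.2% lower, with a log2 fold change of -1.06 (SE 0.0682, limma adjusted p 7.13e-05), the largest change among the members. Over all 8 intermediate filament genes tested, 3 fell, Vim and Gfap among them, and 1 rose (25.5% and 22.8% of all genes). Besides Vim and Gfap, Nefl, a neuronal neurofilament gene, fell by 0.51 on the log2 scale (limma adjusted p 0.00140). Nes, the nestin gene of progenitors and reactive glia, rose by 0.67 (limma adjusted p 0.00456), from 0.833 to 1.92 FPKM. Nes met the minimum mean of 1 FPKM for testing only through Bet+HMD, the group where it was high. Vim is also a gene of vessel walls and ependyma. Endothelial and mural markers summed to 107 to 111 FPKM in HMD and 107 to 109.8 FPKM in Bet+HMD, with 1 of 10 higher and 1 of 10 lower. Ependymal markers summed to 13.7 to 22.6 FPKM in HMD and 13.7 to 14.4 FPKM in Bet+HMD, with 4 of 8 lower, and their part in the fall of Vim was not tested. Among those lower, Ccdc153 and Ak7 were at 0.881 and 0.638 FPKM in Bet+HMD and met the minimum for testing only through HMD. Beside both lists, 25.5% of all genes were lower and 22.8% higher.

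Both astrocyte connexins fell. Gjb6 had 48.8, 47.2 and 41.8 FPKM in HMD and 27.2, 23.9 and 27.1 FPKM in Bet+HMD, with no overlap. It was 43.3% lower, with a log2 fold change of -0.79 (SE 0.0885, limma adjusted p 0.000499). Gja1 (ENSMUSG00000050953, chromosome 10, 56377330 to 56402513, plus strand) had 29.8, 26.9 and 25.7 FPKM in HMD and 19.8, 19.4 and 20.0 FPKM in Bet+HMD. The Bet+HMD samples of Gja1 lay close together below the HMD samples. It was 28.2% lower, with a log2 fold change of -0.46 (SE 0.0758, limma adjusted p 0.00263). Of the 8 brain connexin and pannexin genes tested, 4 fell, Gjb6 and Gja1 among them, and 1 rose. Over all genes 25.5% fell and 22.8% rose. Gjb2, the connexin 26 gene, rose by 0.43 on the log2 scale to 4.61 FPKM (limma adjusted p 0.0216), and the pannexin gene Panx1 fell by 0.70 (limma adjusted p 0.00153).

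Serpina3n (ENSMUSG00000021091, chromosome 12, 104406729 to 104414329, plus strand) encodes a secreted serine protease inhibitor made by reactive astrocytes. It had 24.3, 27.7 and 25.5 FPKM in HMD and 13.4, 14.0 and 13.3 FPKM in Bet+HMD, with no overlap. The level was 47.5% lower, with a log2 fold change of -0.88 (SE 0.0739, limma adjusted p 0.000176). The gene has close paralogs among which reads can be split, and its value is uncertain to that extent. Serpina3k reached 14.6 FPKM in Con, 1.14 FPKM in HMD and 0.0550 FPKM in Bet+HMD, and Serpina3g reached 1.43 and 0.300 FPKM.

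Genes of water transport, calcium binding and metabolism did not pass the test. Aqp4 (ENSMUSG00000024411), the water channel gene of end-feet, had 36.0, 37.8 and 28.6 FPKM in HMD and 26.7, 27.5 and 29.5 FPKM in Bet+HMD. HMD replicate 3 lay within the range of Bet+HMD. Its log2 fold change, -0.27 (SE 0.111), had a limma adjusted p of 0.0802. Aqp4 passed in limma voom (adjusted p 0.0455) and without HMD replicate 3 (-0.39, adjusted p 0.00656). It did not pass in any other fit, and with TPM its estimate was -0.080 (limma adjusted p 0.596). Of the 7 genes tested from the complex that anchors Aqp4 in the membrane, 2 rose, where 22.8% of all genes rose. Agrn, the agrin gene, rose by 0.73 on the log2 scale (limma adjusted p 0.000289), and Dmd, the dystrophin gene, rose by 0.25 (limma adjusted p 0.0366).

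S100b (ENSMUSG00000033208) had 55.0, 46.2 and 55.0 FPKM in HMD and 48.1, 46.8 and 44.9 FPKM in Bet+HMD. The groups overlapped through HMD replicate 2. Its log2 fold change of -0.15 (limma adjusted p 0.189) turned to 0.046 after rescaling to TPM, and was -0.23 and passed without HMD replicate 2 (adjusted p 0.0173). S100b overlaps Dip2a on the opposite strand, which had 9.04 to 11.6 FPKM in the later table, and strand use in counting is not stated. Aldoc (ENSMUSG00000017390) ranged from 146 to 200 FPKM in HMD and from 152 to 176 FPKM in Bet+HMD, and its log2 fold change of -0.064 (95% interval -0.36 to 0.23) turned to 0.14 with TPM. Aldh1l1 (ENSMUSG00000030088), a folate enzyme gene used as a general astrocyte marker, had 7.24 to 9.87 FPKM in HMD and 8.22 to 9.05 FPKM in Bet+HMD. Its log2 fold change was 0.032 (95% interval -0.23 to 0.29, limma adjusted p 0.830).

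Sox9 (ENSMUSG00000000567) was the 1 member that rose. It had 10.4, 10.5 and 10.1 FPKM in HMD and 11.8, 11.9 and 13.4 FPKM in Bet+HMD, with no overlap. The estimate was 0.24 on the log2 scale (SE 0.0755, limma adjusted p 0.0343). This call was lost when all 3 groups shared 1 fit (adjusted p 0.189) and in 5 of the 6 fits that left out a sample, where the adjusted p reached 0.127.

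Bet+HMD was also compared with Con, with the same Bet+HMD samples, so the 2 sets of values are not independent. Of the 10 members 5 fell, where 20.4% of the 13643 genes tested fell, and 0 rose, where 19.4% of all genes rose. At a log2 change of at least 1 there were 0 lower members (2.97% of all genes). The samples did not overlap for 5 lower members (29% of all genes) and 1 higher member, Sox9 (26.1% of all genes). The median log2 fold change was -0.29 over the members and -0.039 over all genes.

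Against Con, Serpina3n fell by 0.80 on the log2 scale (SE 0.0753, limma adjusted p 0.000595), from 24.3 ± 0.945 to 13.6 ± 0.393 FPKM (SD, n = 3). Vim fell by 0.65 (SE 0.101, limma adjusted p 0.00308), from 11.7 ± 1.38 to 7.07 ± 0.316 FPKM. Gfap fell by 0.53 (SE 0.106, limma adjusted p 0.00850), with Con samples at 75.3, 66.0 and 84.4 FPKM above all Bet+HMD samples. Gja1 fell by 0.47 (SE 0.101, limma adjusted p 0.0106), and S100b, at 55.6, 55.3 and 68.3 FPKM in Con, fell by 0.34 (SE 0.106, limma adjusted p 0.0397). The calls of Gfap and Gja1 were lost with TPM (adjusted p 0.0842 and 0.0742), that of Gja1 also without Bet+HMD replicate 2 (0.0511). The call of S100b was lost with TPM (adjusted p 0.421), with median centring (0.0538) and in 4 of the 6 fits that left out a sample.

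Gjb6 took another place relative to Con. Its Bet+HMD samples, 23.9 to 27.2 FPKM, overlapped the Con samples, 24.6 to 37.0 FPKM, while its HMD samples lay above both. The log2 fold change against Con was -0.21 (95% interval -0.57 to 0.15, limma adjusted p 0.310), and it was 0.0055 with TPM. It passed without Con replicate 3 (-0.35, adjusted p 0.0415) and was -0.068 without Con replicate 2. Gfap, Vim, Serpina3n and Gja1 were instead below Con as well as below HMD in every Bet+HMD sample. Sox9 gave 0.34 (95% interval -0.025 to 0.71, limma adjusted p 0.122), with 7.32 FPKM in Con replicate 3 and 10.6 and 11.1 FPKM in the other Con samples.

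Because scaling can move all genes of a library together, each member was also divided by Aldh1l1 of the same library. The ratio of Gfap was 5.80 to 6.15 in Bet+HMD, 8.07 to 11.6 in HMD and 8.04 to 9.00 in Con. The ratio of Vim was 0.783 to 0.831 in Bet+HMD, 1.56 to 2.16 in HMD and 0.987 to 1.65 in Con. For Serpina3n the ratio was 1.48 to 1.62 in Bet+HMD, 2.58 to 3.83 in HMD and 2.22 to 3.17 in Con. These 3 ratios did not overlap between Bet+HMD and the other groups, and neither did that of S100b, at 5.28 to 5.47 in Bet+HMD, 5.57 to 6.43 in HMD and 6.50 to 6.94 in Con. The ratio of Gja1 was 2.18 to 2.43 in Bet+HMD, below HMD (2.60 to 3.72) but overlapping Con (2.31 to 3.65). Gjb6 stood likewise, at 2.69 to 3.30 in Bet+HMD, 4.24 to 6.53 in HMD and 2.34 to 4.65 in Con. So did Aldoc, at 18.5 to 19.8 in Bet+HMD, below HMD (20.2 to 21.1) but overlapping Con (19.2 to 23.9). The ratios of Aqp4 and Sox9 overlapped both other groups. How many of all genes had ratios without overlap was not computed. A ratio within a library shows that 2 genes changed unequally and not which of them changed.

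**Figure D3:**
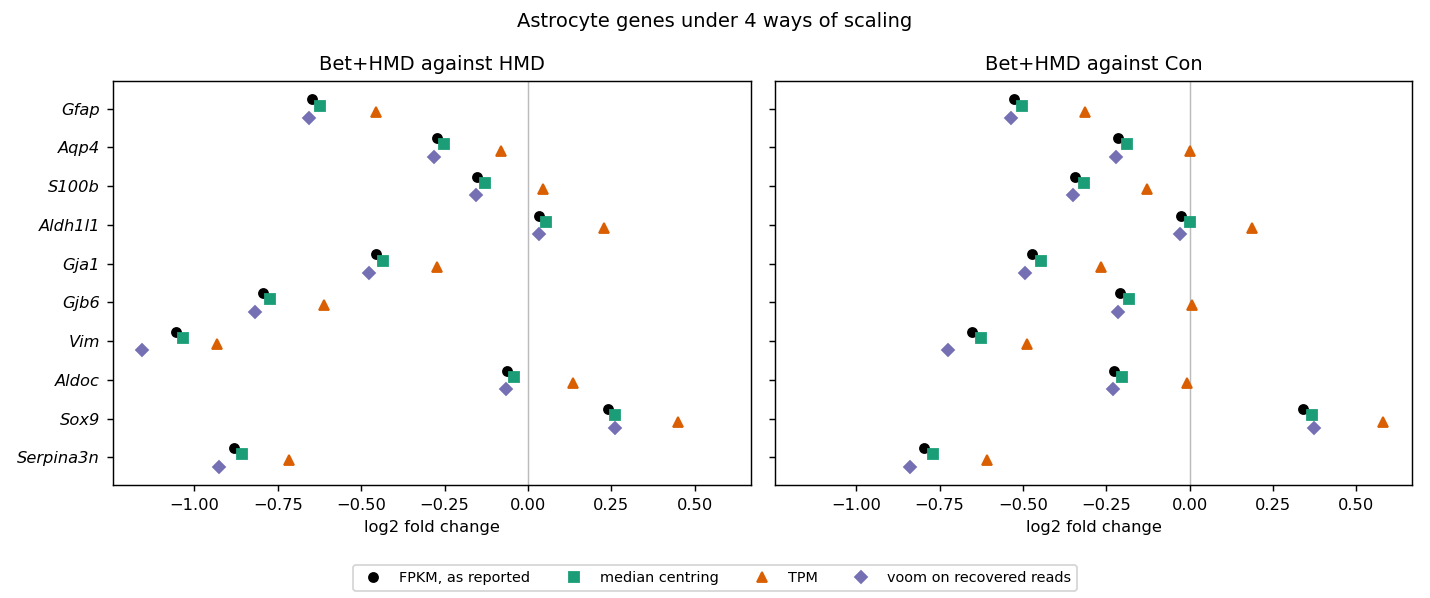
Log2 fold change of each member in both comparisons with Bet+HMD under 4 ways of scaling, with circles for the reported FPKM fit, squares for median centring, triangles for TPM and diamonds for voom. Voom used the library sizes behind the FPKM. TPM moved every member to the right, so that S100b (0.046) and Aldoc (0.14) against HMD and Aldh1l1 (0.19) and Gjb6 (0.0055) against Con became positive, while Gfap, Gja1, Vim and Serpina3n stayed negative.

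Astrocyte genes outside the 10 members were mixed. Of 32 other astrocyte markers tested in Bet+HMD against HMD, 13 fell and 2 rose (25.5% and 22.8% of all genes), with a median log2 fold change of -0.22. Htra1, a secreted protease gene, fell by 0.76 (limma adjusted p 0.000625), and Agt, the angiotensinogen gene, fell by 0.87 (limma adjusted p 0.0482). Hes5, a Notch target, fell by 0.69 (limma adjusted p 0.0116), from 2.09 to 0.935 FPKM, and met the minimum mean for testing only through HMD. Glul, the glutamine synthetase gene, rose from 392 ± 21.8 to 507 ± 14.3 FPKM (SD, n = 3), a log2 fold change of 0.37 (limma adjusted p 0.00530). Plcd4, a phospholipase C gene, rose by 0.56 (limma adjusted p 0.00399). Against Con, 8 of the 32 fell, near the 20.4% of all genes, among them Mlc1, a membrane protein gene of end-feet, by 0.73 (limma adjusted p 0.00119), and 2 rose, Glul and Plcd4, where 19.4% of all genes rose.

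Of 35 genes linked to reactive astrocytes, 18 were tested in Bet+HMD against HMD, and 6 fell and 0 rose, where 25.5% and 22.8% of all genes did. Fkbp5, a chaperone gene induced by glucocorticoids, fell by 1.13 on the log2 scale, from 11.4 ± 0.213 to 4.66 ± 0.180 FPKM (limma adjusted p 5.44e-05). Tm4sf1 fell by 0.97 (limma adjusted p 0.00124), and Amigo2, an adhesion molecule gene, fell by 0.88 (limma adjusted p 0.0163). Against Con, 17 were tested, 7 fell and 0 rose, where 20.4% and 19.4% of all genes did, and Tm4sf1 fell by 1.09 (limma adjusted p 0.00136). In HMD against Con 0 of 19 passed in limma, with 3 at an unadjusted p under 0.05, where 0% and 4.56% of all genes did. Fkbp5 had the smallest p of the list, with a log2 fold change of 0.59 (limma adjusted p 0.339). Fkbp5 passed when all 3 groups shared 1 limma fit of the later table (0.58, adjusted p 0.0412). That fit called 9 of 13464 genes and took part of its error from the Bet+HMD libraries, which differed least among themselves. With Con and HMD alone, the later table called 0 genes. Lists of this kind contain genes that microglia and vessel cells also express.

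Markers of other cells were counted in the same way. In Bet+HMD against HMD, 5 of 10 microglia markers, 5 of 10 neuron markers and 4 of 10 oligodendrocyte markers fell, and 2 neuron markers rose. Over all genes 25.5% fell and 22.8% rose. Of choroid plexus markers 0 of 8 passed in limma, with 0 at an unadjusted p under 0.05 (7627 of all 13672 genes), and of hippocampus markers 2 of 10 fell. The medians of the microglia, neuron and oligodendrocyte lists were -0.16, -0.40 and -0.17, beside -0.36 for the astrocyte members. No test of a difference between the lists was made. The microglial C1qb fell by 0.65 (limma adjusted p 0.00255), the neuronal Stmn2 by 0.90 (limma adjusted p 7.69e-05) and the oligodendrocyte gene Mog by 0.95 (limma adjusted p 0.000475). Thalamus markers fell in 6 of 10 cases, and their part in the astrocyte values was not tested. In Bet+HMD against Con, the summed thalamus level was 49.9 to 51.0 against 48.5 to 54.0 FPKM. Of 9 thalamus markers tested 2 rose, where 19.4% of all genes rose. These were Slc17a6, from 4.05 to 8.74 FPKM (limma adjusted p 0.00460), and Plekhg1, from 3.21 to 3.98 FPKM (limma adjusted p 0.0488). The part of the thalamus markers was likewise not tested.

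**Figure D4:**
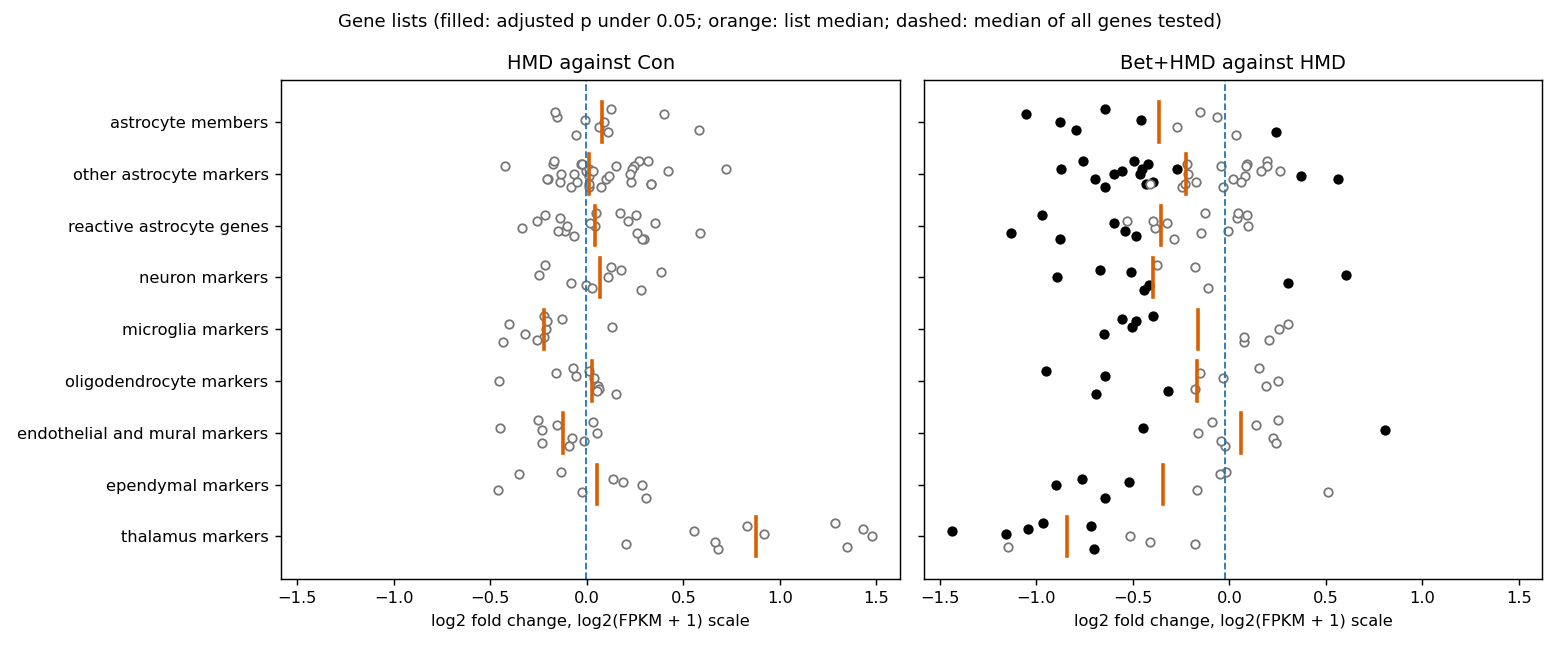
Log2 fold change on the log2(FPKM + 1) scale of the genes of 9 lists in HMD against Con and Bet+HMD against HMD, with filled points for an adjusted p under 0.05, an orange bar for the list median and a dashed line for the median of all genes tested. No point is filled in HMD against Con, where the thalamus list is shifted to the right (median 0.87), and filled points of lower genes appear in every list of the other comparison.

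Over the 9 samples of the later table, the genes whose log2(FPKM + 1) was most like that of Gfap among 13464 genes were Atp6v0e2, a proton pump subunit gene, Ttc39c, the pseudogene Gm10250, Uqcc1, a factor of respiratory complex III assembly, and Wdr6. Their Pearson's r with Gfap was 0.980 to 0.987, a description without a p. Like Gfap, each was lowest in Bet+HMD. Atp6v0e2 had a mean of 124 FPKM in Con, 125 in HMD and 87.9 in Bet+HMD. None of the 5 is an astrocyte marker of the lists used here.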

How the data were processed

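Total RNA of mouse hippocampus was sequenced in 9 samples, 3 per group. Per the study's methods, ribosomal RNA was removed and stranded paired-end libraries were made. The study describes no betaine group, so these methods may not hold for the Bet+HMD libraries. The submitters' processing notes name HISAT2 2.1.0, featureCounts 1.5.0-p3 and mm10, and the counting's strand setting is not given in the sources used here. The authors deposited FPKM per gene in 2 tables, with gene length, position and biotype as other columns. Control columns carry the prefix COL, so their match to Con is inferred from the remaining prefixes. The library size behind the FPKM was inferred from the values and was not the plain sum of reads on genes. In the later table it was 1.04 to 1.05 times that sum in Bet+HMD. It was 0.956 to 1.01 times the sum in HMD and 0.953 to 1.03 times in Con. Multiplying FPKM by gene length and this library size gave whole reads for 100% of values (tolerance 0.05 reads). limma voom used the same library sizes, so it kept the deposited scaling. The shared samples had 0.312% to 5.49% fewer reads in the later table, so tests stayed within a table. Replicate libraries differed by more than sampling noise, and least in Bet+HMD. In the later table, chi-square per degree of freedom was 3.00 to 4.21 between Bet+HMD libraries. It was 11.8 to 22.2 between HMD libraries and 22.8 to 42.2 between Con libraries. Why the Bet+HMD libraries were closer to each other was not tested.

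limma 3.58.1 in R 4.3.3 was fitted with a trend to log2(FPKM + 1) of the 2 groups compared, over genes whose mean FPKM reached 1. This mean was taken over the samples in the fit, so a gene under 1 FPKM in 1 group could enter through the other group. p-values were two-sided and adjusted by Benjamini-Hochberg over all genes tested, with a threshold of 0.05. FPKM is not a count, so limma replaced the count tool named in the study's methods. SE is limma's moderated error. Fold changes on this scale understate the change of low genes. The fit was tested on simulated data, where false calls came from genes with few reads. The simulation gave all genes the same excess spread between replicates and held no difference between library sets. It therefore cannot show how often calls in these data are false. The members and the gene lists were chosen with earlier results of these data known. All members were named. From each other list, the genes named were up to 3 of the largest rise and fall among those that passed, or the smallest p in each direction where none passed, and not all of these are given. The other results of the Aqp4 anchoring list are not reported here. The 5 genes most like Gfap were ranked by Pearson's r. Alternatives were a pseudocount of 0.1, no filter, a filter at 5 FPKM, TPM, median centring, limma voom on recovered reads, 1 fit of all 3 groups, a fold threshold, the replicate block, leaving out each sample, and the use of the later table where HMD is set against Con. Of 54409 genes with an identifier in GENCODE M21 on GRCm38, 98.3% had the same position, so coordinates are on GRCm38 as deposited. Promoter sequences are from RefSeq. Levels of neighboring or overlapping genes are given where reads could be shared.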

Additional observations from a re-analysis of the deposited data

How the results depend on the processing

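In HMD against Con, 0 members passed under all 10 alternatives and in every fit without 1 sample. In Bet+HMD against HMD the 6 calls became 1 with the added threshold of 1 on the log2 scale and were 5 to 7 without 1 sample. In Bet+HMD against Con the 5 calls became 3 with TPM and 0 with that threshold, and were 3 to 6 without 1 sample, the lowest without Bet+HMD replicate 2, where S100b and Gja1 were lost. Against HMD, Vim, Serpina3n, Gjb6, Gfap and Gja1 had an adjusted p under 0.05 in every fit, and so did Vim and Serpina3n against Con. TPM moved the median of all genes to 0.16 (Bet+HMD against HMD) and 0.17 (Bet+HMD against Con), and the share of calls that were higher from 47.2% to 69.5% and from 48.8% to 73.5%. Sox9 then passed against Con (0.58, limma adjusted p 0.0275). Signs that turned with TPM were those of Gja1 in HMD against Con (0.011), S100b (0.046) and Aldoc (0.14) in Bet+HMD against HMD, and Aldh1l1 (0.19) and Gjb6 (0.0055) in Bet+HMD against Con. The pseudocount of 1 was kept for TPM, whose values are larger than FPKM. The parts of scaling and pseudocount in the shift were not separated. Estimates near 0 also turned when 1 sample was left out. In HMD against Con they ran from -0.10 to 0.055 for Gja1, -0.0089 to 0.18 for Aqp4, -0.16 to 0.060 for Aldh1l1 and -0.064 to 0.21 for Sox9. In Bet+HMD against HMD they ran from -0.070 to 0.13 for Aldh1l1 and -0.19 to 0.035 for Aldoc, and against Con from -0.097 to 0.083 for Aldh1l1. The replicate block gave 0, 5 and 4 calls in the 3 comparisons, in the order above, and the lost calls were Sox9 (limma adjusted p 0.0973) and S100b (0.105). Deviations of same-numbered samples had correlations of -0.0555, 0.346 and 0.319 in HMD against Con. The correlations were 0.0171, -0.102 and -0.151 in Bet+HMD against HMD, and -0.0489, -0.0902 and -0.176 in Bet+HMD against Con. Con replicates 2 and 3 were each closest to the HMD sample of the same number. These few pairs cannot decide whether the numbers mark a pairing of samples. Among other astrocyte markers 10 calls against Con became 6, 6 and 5 without Bet+HMD replicate 1, 2 and 3. Aldoc passed against Con without Con replicate 2 (-0.40, limma adjusted p 0.0403).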
